A study of Mus musculus with 24 samples.

Results

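The strain difference of the lung's response to 48 h of ozone was examined as the change after ozone in C3H/HeOuJ mice (OuJ) minus the change in C3H/HeJ mice (HeJ). Its members are the 12 of 24 arrays whose titles place them in 4 groups: OuJ mice after 48 h of ozone, OuJ mice in air, HeJ mice after 48 h of ozone and HeJ mice in air, with 3 arrays a group. OuJ mice have a sufficient Tlr4 and HeJ mice a dominant negative one, all mice were males, and each array carries RNA of the left lung lobe of 1 mouse. The sources used here give neither the ages nor the ozone concentration. The strains are substrains with separate breeding histories, so Tlr4 need not be the only gene in which they differ. The other 12 arrays, after 6 and 24 h of ozone, entered the estimate of the spread, and those at 24 h one further comparison.

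Tlr4 is a receptor on macrophages, epithelium and other cells that is best known for sensing bacterial lipopolysaccharide and signals through NF-kB to inflammatory genes. Ozone is an oxidant gas that injures the airway and alveolar lining, and the injured lung is known to answer with antioxidant enzymes, chaperones, acute phase proteins, chemokines and renewed cell division. A comparison of OuJ with HeJ mice asks how far this answer differs when Tlr4 is deficient.

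Levels are signal intensities, and changes are differences of log2(signal + 16) ± SE from limma, 3 arrays a group; on this scale 1 is a doubling, less for low signals. Positive strain differences mean that the change from air was more positive in OuJ. P-values were adjusted by the Benjamini-Hochberg method over the 8008 genes of the fit, and passing means an adjusted p under 0.05. In counts of list members, higher or lower in OuJ means an unadjusted p under 0.05 for the strain difference. Of all genes, 4.35% were higher and 3.87% lower by this rule, and several list counts lie near these shares. Members counted as rising or falling passed against air. The genes that define lung tissue were high on all 12 arrays: surfactant protein C (Sftpc) had signals of 27216 to 39702, the club cell secretory protein Scgb1a1 24983 to 37185, the type 1 cell receptor Ager 12835 to 17294 and the endothelial cadherin Cdh5 3776 to 6588. Arrays of a group correlated at 0.97 to 0.98. For Gapdh, the signal at the 5' end divided by that at the 3' end, a measure of RNA integrity, averaged 0.895 in OuJ 48 h, 0.843 in OuJ air, 0.593 in HeJ 48 h and 0.558 in HeJ air arrays, so that it differed between strains and little between ozone and air. The sample codes put the air arrays of both strains in 1 series, the OuJ 48 h arrays in another and the HeJ 48 h arrays in yet another. Ozone at 48 h and code series therefore cannot be told apart in either strain, nor can strain and code series at 48 h, and every change against air and every strain difference of the 48 h response below carries this limit.

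No gene passed the test of the strain difference at 48 h. Of 8008 genes, 0 had an adjusted p under 0.05 (0%), the smallest adjusted p being 0.16, while 658 had an unadjusted p under 0.05, 348 with a higher change in OuJ (4.35%) and 310 with a lower one (3.87%). By limma with array weights 10 genes passed, and without single arrays 0 to 2: Per2 and Nr4a1 without the third OuJ air array, Dll1 and Coq4 without the third HeJ air array, and Meis1 without the second OuJ 48 h array. A gene that misses the threshold is not shown to respond alike in both strains. The 95% interval of the difference, unadjusted, had a median half-width of 0.44, and it lay within 1 log2 unit on either side of 0 for 6973 genes (87.1%).

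Most genes called in 1 strain after 48 h had the same sign in the other, with the code series of the 48 h arrays differing from that of the air arrays in both. Against air, 296 genes rose (3.7%) and 337 fell (4.21%) in OuJ lungs, and 454 rose (5.67%) and 516 fell (6.44%) in HeJ lungs. Both strains shared 323 of these calls, 51% of the OuJ calls and 33.3% of the HeJ calls, with 168 higher in both, 153 lower in both and 2 opposite. The opposite pair, Adssl1 and Coq4, fell in OuJ and rose in HeJ. Of the 633 OuJ calls, 591 had the same sign in HeJ, and of the 970 HeJ calls, 889 had the same sign in OuJ. The share with the same sign among all 8008 genes was not counted, so these counts have no base beside them. Across all 8008 genes, which are not independent replicates, the changes in the 2 strains correlated at r = 0.624. Of the 1280 genes called in either strain, 346 had an unadjusted p under 0.05 for the strain difference, beside 658 of all 8008 (8.22%). For 1006 (78.6%) its interval lay within 1 log2 unit on either side of 0, beside 87.1% of all genes. The 1280 were picked by changes on the same arrays as the strain difference, which by itself can shift these shares, so they are no test. The counts of single strains depended on single arrays: the OuJ calls numbered 286 without the third OuJ 48 h array and 393, 420 and 411 without OuJ air replicates 1, 2 and 3, left out in turn, and the HeJ calls 636 and 609 without the first and second HeJ 48 h array.

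**Figure D1:**
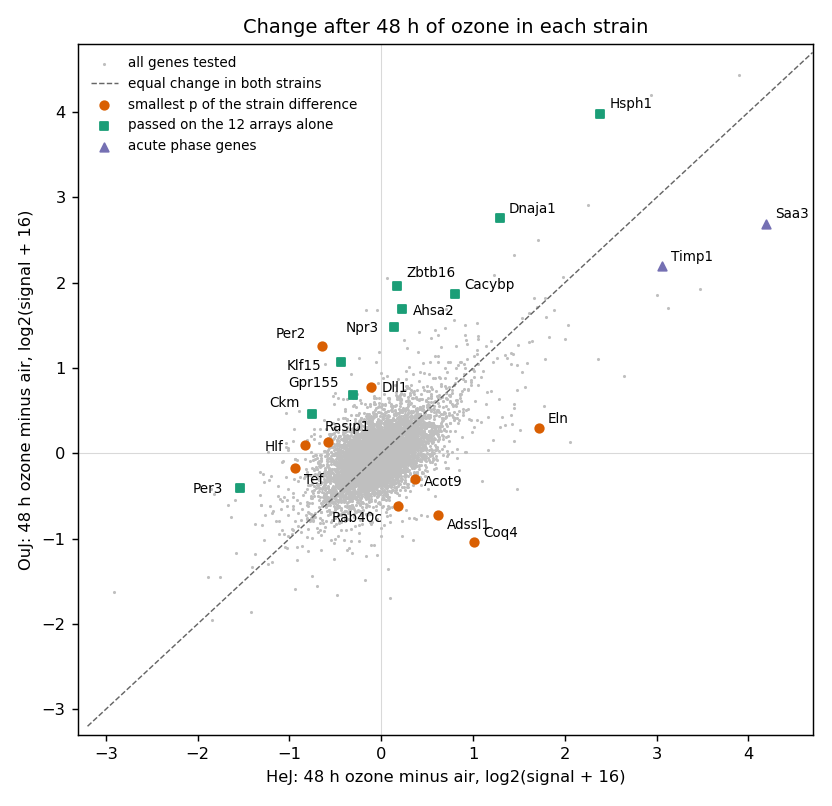
Change after 48 h of ozone relative to air in OuJ (vertical axis) and HeJ lungs (horizontal axis), in log2(signal + 16), for the 8008 genes tested; points off the dashed line changed unequally. Orange points are the 5 genes per direction with the smallest p of the strain difference, green squares the other genes that passed on the 12 arrays alone, and purple triangles Saa3 and Timp1; Per2 has a change of 1.26 in OuJ and -0.64 in HeJ.

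Of 15 clock genes and their output factors, 9 had a more positive change in OuJ at an unadjusted p under 0.05. They were mainly genes that fell in HeJ. In the circadian clock, Arntl and Clock drive the genes of the Per and Cry repressors through E-box sites, and the PAR bZIP factors Dbp, Tef and Hlf act on D-box sites of further genes. Promoters of 3 of these genes are shown because they hold those sites and belong to genes discussed next. Tef and Per1 have 2 listed starts each, and the window shown is the first that holds the site. The windows are the 250 bases before a listed start in the RefSeq annotation of GRCm38.p6, 5' to 3' on the gene's strand, with the sites in capitals: for Per3 a pair of D-boxes (chr4:151044666-151044915, minus strand), for Tef and Per1 an E-box (chr15:81802423-81802672 and chr11:69098699-69098948, both plus strand).
Per3: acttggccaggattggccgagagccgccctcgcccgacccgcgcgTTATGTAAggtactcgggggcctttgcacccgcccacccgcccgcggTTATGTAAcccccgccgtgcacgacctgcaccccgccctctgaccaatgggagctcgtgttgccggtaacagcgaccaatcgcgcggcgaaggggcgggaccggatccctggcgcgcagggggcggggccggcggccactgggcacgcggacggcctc
Tef: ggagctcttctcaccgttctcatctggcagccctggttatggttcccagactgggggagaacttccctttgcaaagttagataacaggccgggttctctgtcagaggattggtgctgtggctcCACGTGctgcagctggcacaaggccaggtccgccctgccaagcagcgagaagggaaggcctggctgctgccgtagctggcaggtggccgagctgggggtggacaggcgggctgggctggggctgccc
Per1: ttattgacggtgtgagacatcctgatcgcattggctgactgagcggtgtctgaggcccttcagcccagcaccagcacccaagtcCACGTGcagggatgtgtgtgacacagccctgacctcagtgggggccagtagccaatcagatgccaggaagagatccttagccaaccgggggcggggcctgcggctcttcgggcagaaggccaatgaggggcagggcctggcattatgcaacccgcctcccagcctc
The E-box was searched as CACGTG and the D-box as TTATGTAA or TTACGTAA, on both strands. An E-box is present in 6.02% and a D-box in 0.931% of all 32851 promoter windows of this length. Of the 15 clock genes tested, 13 are in the promoter table, 2 of them with an E-box and 1 with a D-box. These 13 genes have 19 windows, so counts of genes and shares of windows are unlike units. A match describes the letters only.

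For these 9, and for 1 clock gene with a lower change, the unadjusted p was under 0.05, beside 4.35% and 3.87% of all genes. The median strain difference was 0.76, against about 0 over all genes, from a median change of -0.14 in OuJ and -0.83 in HeJ. In HeJ lungs 2 members rose and 8 fell after ozone, and in OuJ lungs 3 rose and 2 fell. None passed the test of the strain difference itself.

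Per2, a clock repressor, had signals in OuJ of 682, 825 and 1076 after 48 h of ozone and 205, 298 and 654 in air. In HeJ they were 179, 143 and 263 after 48 h of ozone and 309, 258 and 354 in air. All OuJ 48 h arrays lay above every other array of the 4 groups, and the third OuJ air array, at 654.5, was the highest of the air arrays. Per2 rose in OuJ by 1.26 ± 0.29 (adjusted p = 0.00772), its HeJ change was -0.64 ± 0.29 (adjusted p = 0.162), and the strain difference was 1.90 ± 0.41 (adjusted p = 0.16).

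Tef, a PAR bZIP factor, had signals in OuJ of 4212, 5217 and 4964 after 48 h of ozone and 5469, 5193 and 5501 in air. HeJ lungs had 2721, 2708 and 3116 after 48 h of ozone and 5383, 5362 and 5627 in air. The HeJ 48 h arrays were the low ones, below all others, while the OuJ groups overlapped. Tef fell in HeJ (-0.94 ± 0.12, adjusted p = 1.64e-05), and the strain difference was 0.76 ± 0.17 (adjusted p = 0.16). Hlf, of the same family, had signals in OuJ of 515, 478 and 461 after 48 h of ozone and 470.1, 418 and 469 in air. The HeJ arrays gave 300.1, 226 and 211 after 48 h of ozone and 439, 485 and 414 in air. Again only the HeJ 48 h arrays stood apart, below all others. The strain difference of Hlf was 0.93 ± 0.21 (adjusted p = 0.161).

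Per3, a further Per family member, had signals in OuJ of 764, 1021 and 997 after 48 h of ozone and 1189, 1259 and 1225 in air. HeJ signals were 306, 371 and 355 after 48 h of ozone and 1118, 939 and 1029 in air. Both strains were lower after ozone without overlap, but only the HeJ fall passed, at -1.54 ± 0.20 (adjusted p = 3.05e-05), beside -0.41 ± 0.20 in OuJ, and the strain difference was 1.13 ± 0.28 (adjusted p = 0.202). Dbp fell in both strains, with changes of -1.63 in OuJ and -2.92 in HeJ (adjusted p = 0.0128 and 5.56e-05), with a strain difference of 1.29 ± 0.57. Per1, Cry2 and the receptor Nr1d2, which represses Arntl, fell in HeJ (-0.73, -1.22 and -1.20), with strain differences of 0.90 ± 0.26, 0.91 ± 0.25 and 0.93 ± 0.34. Bhlhe40, a clock repressor, rose in OuJ by 0.65, with a strain difference of 0.71 ± 0.28.

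Arntl, the clock's activator, ran the other way. Its signals in OuJ were 166, 61.9 and 90.2 after 48 h of ozone and 100.3, 78.2 and 89.5 in air, and in HeJ 313, 325 and 312 after 48 h of ozone and 124, 16.9 and 93.9 in air. The HeJ 48 h arrays lay above all others, and the second HeJ air array was the lowest of the 12. Arntl rose in HeJ by 2.06 ± 0.49 (adjusted p = 0.00793), with a strain difference of -1.93 ± 0.70 (adjusted p = 0.416). Without the second HeJ air array, 0 clock genes had a lower change in OuJ at an unadjusted p under 0.05. Clock, Rora, Cirbp, Nr1d1 and Nfil3 had strain differences of -0.34, 0.30, 0.30, -0.08 and 0.09, all at an unadjusted p above 0.05, although Cirbp, a cold-inducible RNA-binding protein, fell and Nfil3, a repressor at D-boxes, rose in both strains. The sources used here do not give the hour at which lungs were taken, and its part in these values was not tested.

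**Figure D2:**
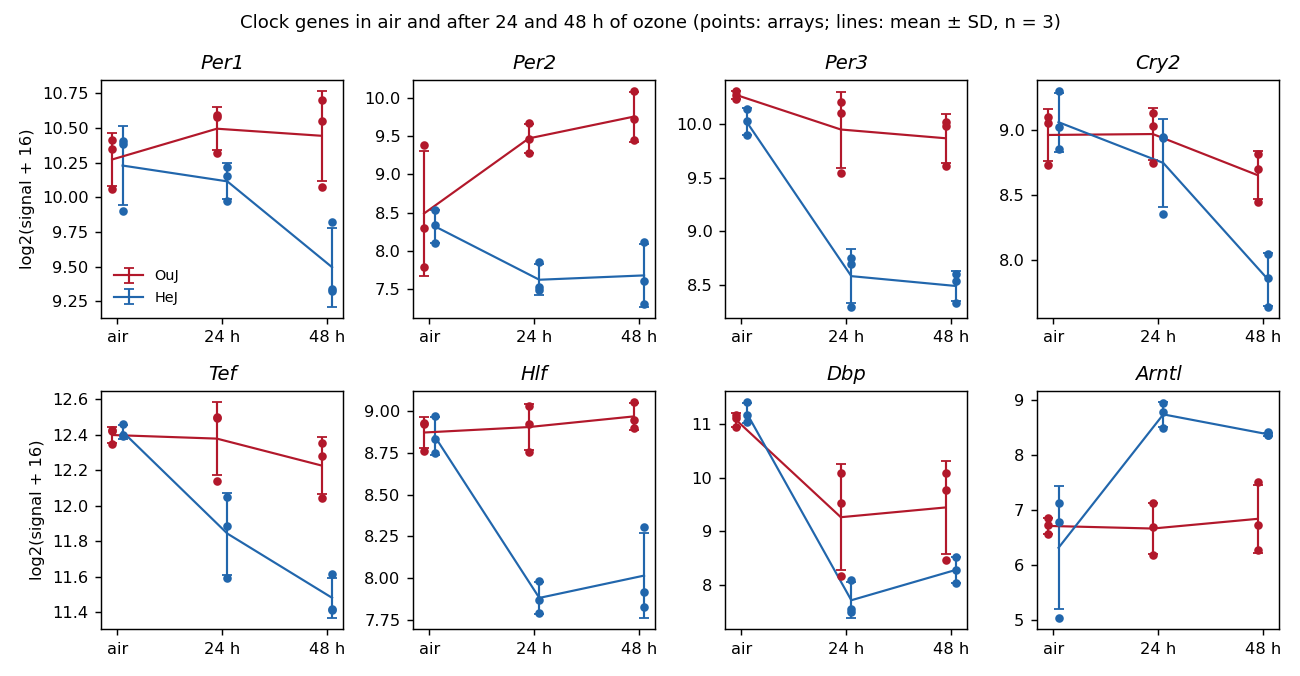
Levels of 8 clock genes, log2(signal + 16), in air and after 24 and 48 h of ozone, in OuJ (red) and HeJ (blue); points are arrays and lines join means ± SD, n = 3. In HeJ, Per3, Tef and Hlf were lower and Arntl higher at 24 and 48 h than in air; in OuJ, Hlf and Arntl stayed near their air level.

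Heat shock proteins and their cofactors had higher changes in OuJ for 14 of 39 measured members and a lower one for 0 at an unadjusted p under 0.05, with a median difference of 0.46. Chaperones fold or refold proteins, and Hsp40 proteins such as Dnaja1 and exchange factors such as Hsph1 work with Hsp70. Promoters of both are printed because they hold a heat shock element pair, GAANNTTC or TTCNNGAA, shown in capitals: Dnaja1 at chr4:40722218-40722467, plus strand, and Hsph1 at chr5:149636337-149636586, minus strand, from the same RefSeq table.
Dnaja1: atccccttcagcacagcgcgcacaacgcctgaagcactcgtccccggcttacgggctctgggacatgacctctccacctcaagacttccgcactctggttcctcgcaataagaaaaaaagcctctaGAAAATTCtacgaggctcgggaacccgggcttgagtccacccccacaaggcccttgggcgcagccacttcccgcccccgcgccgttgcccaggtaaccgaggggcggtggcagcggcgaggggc
Hsph1: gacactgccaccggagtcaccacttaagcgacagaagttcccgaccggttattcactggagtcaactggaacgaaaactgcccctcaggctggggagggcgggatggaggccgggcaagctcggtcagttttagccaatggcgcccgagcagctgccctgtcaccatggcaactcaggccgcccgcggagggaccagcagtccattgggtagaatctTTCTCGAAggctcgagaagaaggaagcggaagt
Such a pair, searched on both strands, is present in 12.8% of all 32851 windows. Of the 33 list members in the table, 12 have it at 1 or more of their listed starts. These 33 genes have 45 windows, so the count of genes and the share of windows are unlike units. Dnaja1 has 3 listed starts and Hsph1 2, and the window shown is the first that holds the pair.

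After 48 h of ozone 24 members rose and 0 fell in OuJ, and 18 rose and 0 fell in HeJ, with median changes of 1.07 and 0.58. The count of 14 was 7 without the second HeJ 48 h array, 9 without the second OuJ air, the third OuJ 48 h or the second HeJ air array, and 8 with median centring of the arrays. In air the median over the members of the difference between strains, OuJ minus HeJ, was 0.02.

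Dnaja1 had signals in OuJ of 11082, 6813 and 10995 after 48 h of ozone and 1245, 1310.0 and 1603 in air. Those in HeJ were 3259.9, 2934 and 3723 after 48 h of ozone and 1290.3, 1346 and 1368 in air. Both strains' ozone arrays lay above their air arrays, and every OuJ 48 h array above every HeJ 48 h array. Dnaja1 rose by 2.76 ± 0.28 in OuJ and 1.29 ± 0.28 in HeJ (adjusted p = 9.76e-07 and 0.00352), and the difference was 1.46 ± 0.39 (adjusted p = 0.269).

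Hsph1 had signals in OuJ of 5472, 4749 and 7835 after 48 h of ozone and 345, 316 and 417 in air. In HeJ they were 1553, 1590.4 and 2397 after 48 h of ozone and 318, 345 and 336 in air. It showed the same order of the 4 groups, rising by 3.98 ± 0.39 and 2.39 ± 0.39 (adjusted p = 9.76e-07 and 0.00039), with a difference of 1.60 ± 0.56 (adjusted p = 0.384). Ahsa2, related to an activator of Hsp90, had signals in OuJ of 1681, 1455 and 1990.2 after 48 h of ozone and 526, 468 and 552 in air. HeJ lungs had 515, 688 and 599 after 48 h of ozone and 586, 414 and 536 in air. Its HeJ groups overlapped, and it rose only in the OuJ test, by 1.69 ± 0.31 (adjusted p = 0.00142), beside 0.23 ± 0.31 in HeJ, with a difference of 1.46 ± 0.44 (adjusted p = 0.327).

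Hspa1a and Hspa1b, near-identical copies of inducible Hsp70 whose probe sets may share signal, had the largest rise of the list in each strain. Hspa1a had signals in OuJ of 4000.0, 3050.4 and 5303 after 48 h of ozone and 109, 99.5 and 713 in air, and in HeJ 1282, 618 and 1352 after 48 h of ozone and 122, 94.8 and 148 in air. The third OuJ air array was far above the other air arrays, for Hspa1b too. The strain differences, 1.26 ± 0.89 and 0.53 ± 0.87, were within their spread (adjusted p = 0.771 and 0.933). Hsp90aa1, Hspe1 and Hspd1 rose in both strains, with differences of 0.16, 0.32 and 0.59. Subunits of the chaperonin that folds actin and tubulin, Tcp1 and Cct2 to Cct5, had differences of -0.07 to 0.39. Cct4, at 0.39, and Hspa8, the constitutive Hsp70, at 0.49, are among the members counted above as higher in OuJ. Each was counted by 1 of its probe sets, and the sets differ in sign. The other probe sets of Cct4 gave -0.19 to 0.07, and the 4 probe sets of Hspa8 gave -0.54 to 0.52.

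Of 30 genes of the unfolded protein response, 5 had a higher and 0 a lower change in OuJ at an unadjusted p under 0.05. By sign alone 15 differences were above 0 and 15 below, with a median of 0.01. Ppp1r15a, which lets translation resume after stress, fell in HeJ (-0.47, adjusted p = 0.00659) beside 0.14 in OuJ, a difference of 0.60 ± 0.15. The stress factor Ddit3 and the degradation factor Herpud1 rose in OuJ, by 0.91 and 0.87, beside 0.06 and 0.27 in HeJ.

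**Figure D3:**
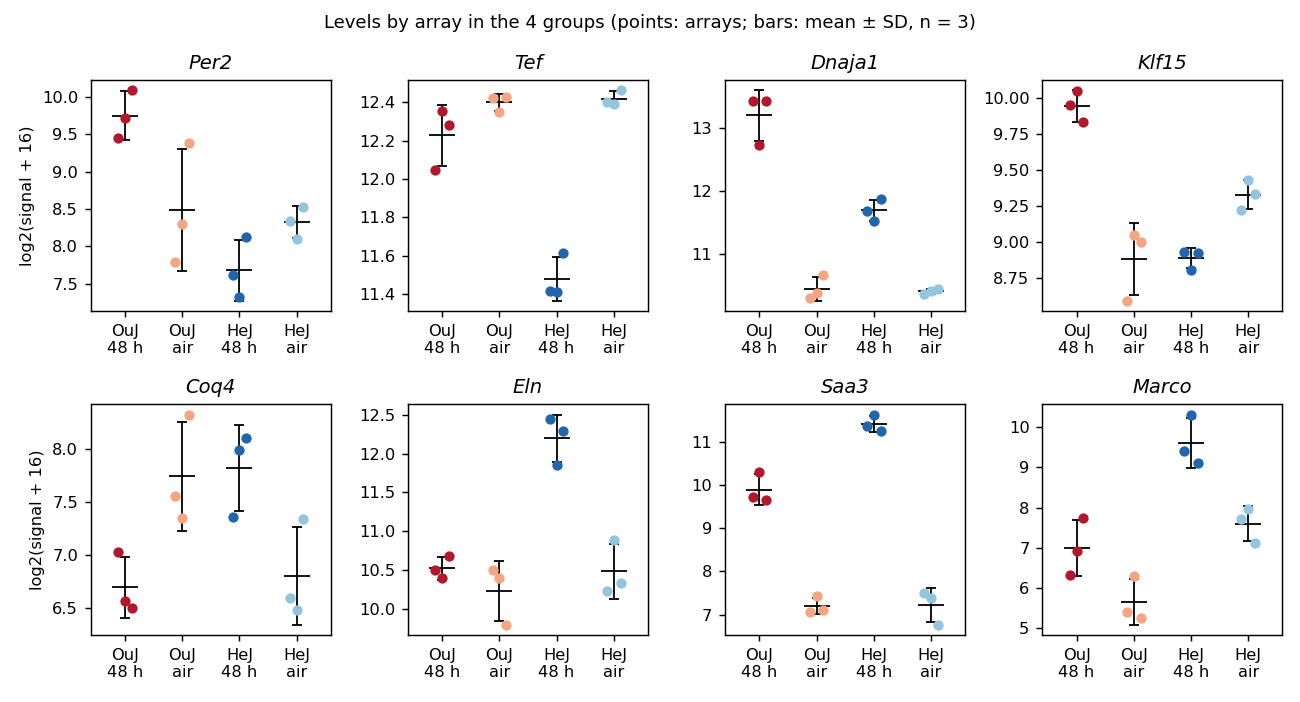
Levels, log2(signal + 16), of 8 genes on the 12 arrays, from left to right OuJ 48 h, OuJ air, HeJ 48 h and HeJ air; points are arrays, bars mean ± SD, n = 3, and each vertical axis has its own range. Per2 and Klf15 were highest in OuJ 48 h, Eln and Saa3 in HeJ 48 h, and Tef was lowest in HeJ 48 h.

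The remaining genes with the smallest p among the higher differences were Dll1 and Rasip1. Dll1, a Notch ligand, had signals in OuJ of 942, 975 and 1241 after 48 h of ozone and 616, 552 and 640.4 in air. The HeJ arrays gave 833, 708 and 648 after 48 h of ozone and 908, 817 and 655 in air. The OuJ air arrays were the low ones, below all others, and Dll1 rose in OuJ by 0.78 ± 0.13 (adjusted p = 0.000563), with a strain difference of 0.89 ± 0.18 (adjusted p = 0.16). Rasip1, which vascular endothelium needs to form lumens, had signals in OuJ of 1450.4, 1777 and 1859.9 after 48 h of ozone and 1561, 1551 and 1482 in air. HeJ signals were 1284, 1262 and 1164 after 48 h of ozone and 1846, 1838 and 1860.0 in air. The HeJ 48 h arrays lay below all others, and Rasip1 fell in HeJ (-0.57 ± 0.11, adjusted p = 0.00163), with a difference of 0.71 ± 0.16 (adjusted p = 0.161).

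Among the lower differences, Coq4 had the smallest p. Coq4, needed for coenzyme Q synthesis, had low signals in OuJ of 114, 79.0 and 74.3 after 48 h of ozone and 172, 146 and 304 in air. Those in HeJ were 148, 238 and 259 after 48 h of ozone and 80.6, 73.5 and 145 in air. Coq4 was kept because OuJ air replicate 3 and HeJ 48 h replicates 2 and 3 exceeded 218.3, and no other array did. It thus entered the fit only through arrays of the groups where it was high. The strains crossed: OuJ ozone arrays lay below OuJ air arrays, and HeJ ozone arrays above HeJ air arrays. The changes were -1.04 ± 0.28 and 1.01 ± 0.28 (adjusted p = 0.024 and 0.0206), and the difference was -2.06 ± 0.40 (adjusted p = 0.16).

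Adssl1, an adenylosuccinate synthase of muscle, crossed likewise, with signals in OuJ of 166, 104 and 124 after 48 h of ozone and 240.1, 199.7 and 232 in air. In HeJ they were 286, 254 and 284 after 48 h of ozone and 145, 242 and 146 in air. Its difference was -1.34 ± 0.29 (adjusted p = 0.16). Acot9, a mitochondrial acyl-CoA thioesterase, had signals in OuJ of 899, 900.0 and 855 after 48 h of ozone and 1202, 1024 and 1066 in air. HeJ lungs had 1184, 1199 and 1114 after 48 h of ozone and 845, 889.5 and 978 in air. Groups did not overlap within either strain, and the difference was -0.67 ± 0.14 (adjusted p = 0.16). Rab40c, a small GTPase of ubiquitin ligases, fell in OuJ (-0.61 ± 0.13), beside 0.19 ± 0.13 in HeJ, a difference of -0.80 ± 0.18 (adjusted p = 0.161).

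Eln encodes elastin, the core of elastic fibres. Its signals in OuJ were 1427, 1328 and 1623 after 48 h of ozone and 1432, 1334 and 871 in air, and in HeJ 5572, 3692 and 4979 after 48 h of ozone and 1187, 1872 and 1273 in air. The HeJ 48 h arrays stood above all others, and Eln rose in HeJ by 1.71 ± 0.23 (adjusted p = 4.21e-05), beside 0.29 ± 0.23 in OuJ, a difference of -1.42 ± 0.32 (adjusted p = 0.161). A further probe set of Eln gave a difference of 0.09, so the value rests on 1 of 2 probe sets. Of 40 fibroblast and matrix genes, 2 had a higher and 3 a lower change in OuJ, with a median of -0.13. Meis1, a homeobox factor of lung mesenchyme, fell in OuJ (-1.66 ± 0.21, adjusted p = 2.57e-05), a difference of -1.17 ± 0.29, and the collagen-binding Lum fell in HeJ (-0.53), a difference of 0.77 ± 0.20.

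When the spread was taken from the 12 arrays of the 4 groups alone, 11 genes passed, all higher in OuJ (0.137%). They are named here after their values were seen. Klf15, a metabolic factor that glucocorticoids induce, had the smallest p, with signals in OuJ of 975, 1043 and 896 after 48 h of ozone and 370.1, 512 and 496 in air. The HeJ arrays gave 471, 432 and 470.1 after 48 h of ozone and 582.3, 673 and 629 in air. In OuJ the 48 h arrays lay above the air arrays and in HeJ below them, and the difference was 1.51 ± 0.18 in this fit (adjusted p = 0.00321) and 1.51 ± 0.42 with all 24 arrays (adjusted p = 0.289). The others were Ahsa2 (1.46, adjusted p = 0.0148), the natriuretic peptide clearance receptor Npr3 (1.34, 0.0148), the zinc finger factor Zbtb16 (1.79, 0.0148), Per3 (1.13, 0.0148), Dnaja1 (1.46, 0.0157), Hsph1 (1.60, 0.0213), muscle creatine kinase Ckm (1.21, 0.0256), Tef (0.76, 0.0306), the membrane protein Gpr155 (0.99, 0.0306) and the calcyclin-binding protein Cacybp (1.06, 0.0493).

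The differences are the same in both fits, and the spread is not. Passing in 1 fit and not in the other selects genes with a smaller SD within groups in these 12 arrays than in the other 12, and their medians of 0.185 and 0.504 are given as a description only. Leaving out 1 of the 12 arrays gave 1 to 14 calls: 1 without the third OuJ 48 h, the third HeJ air or the first HeJ 48 h array, 2 without the first OuJ air array, 5 without the second HeJ 48 h array and 6 without the second OuJ air array. Klf15 passed in 12 of these 12 fits and Cacybp in 1.

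**Figure D4:**
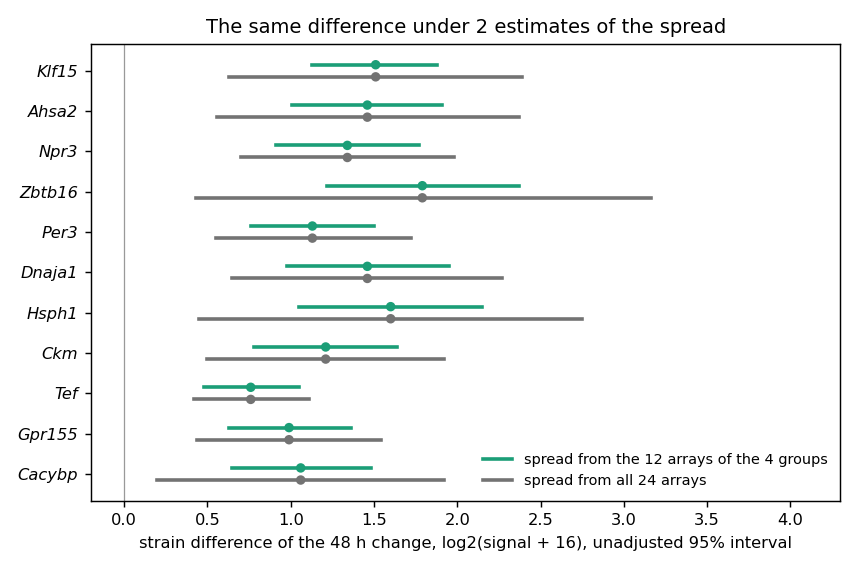
Strain difference of the 48 h change, log2(signal + 16), of the 11 genes that passed on the 12 arrays alone, with its unadjusted 95% interval from the spread of those 12 arrays (green) or of all 24 (grey). Points are the same in both fits, and the grey intervals are wider for each gene shown; for Klf15 they run from 1.13 to 1.88 (green) and from 0.63 to 2.39 (grey).

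Npr3 had signals in OuJ of 1865, 1856 and 1844 after 48 h of ozone and 740.1, 562 and 668 in air. HeJ signals were 1534, 1322 and 1818 after 48 h of ozone and 1705, 1203 and 1327 in air. The OuJ air arrays stood below all others, and the strains already differed in air, by -1.08 ± 0.22 (adjusted p = 0.0169), but by only 0.26 ± 0.22 at 48 h (adjusted p = 0.506). Zbtb16 had signals in OuJ of 574, 782 and 710.1 after 48 h of ozone and 147, 161 and 184 in air. Those in HeJ were 146, 182 and 160.3 after 48 h of ozone and 142, 108 and 185 in air. Here the OuJ 48 h arrays stood above all others, and Zbtb16 rose in OuJ by 1.96 ± 0.47 (adjusted p = 0.0104), beside 0.17 ± 0.47 in HeJ.

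At an unadjusted p under 0.05, 6 of 22 measured glucocorticoid-responsive genes had a higher and 1 a lower change in OuJ. Zbtb16 belongs to this list, whose median difference was 0.39. After ozone 6 members rose and 0 fell in OuJ, and 3 rose and 3 fell in HeJ. Tsc22d3, an anti-inflammatory mediator of glucocorticoids, had signals in OuJ of 5208, 4838 and 5022 after 48 h of ozone and 1849, 2176 and 3061 in air. In HeJ they were 1249, 1718 and 1631 after 48 h of ozone and 1202, 2585 and 1889 in air. The OuJ 48 h arrays lay above all others while the HeJ groups overlapped, and Tsc22d3 rose in OuJ by 1.11 ± 0.28 (adjusted p = 0.0131), with a difference of 1.36 ± 0.39 (adjusted p = 0.293). The count of 6 was 4 without the third OuJ air array or the second HeJ air array. Corticosterone was not among the measurements.

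Immediate early genes had 7 of 25 members higher and 2 lower at an unadjusted p under 0.05. Their median difference was 0.47. In HeJ 3 rose and 9 fell after ozone, and in OuJ 3 rose and 2 fell. Nr4a1, a nuclear receptor induced within minutes of stimulation, had signals in OuJ of 1201, 1368 and 1578 after 48 h of ozone and 1326, 1556 and 3055 in air. HeJ lungs had 643, 535 and 557 after 48 h of ozone and 1479.9, 2391 and 2729.7 in air. The HeJ 48 h arrays were the low ones, and Nr4a1 fell in HeJ (-1.86 ± 0.25, adjusted p = 4.35e-05), with a difference of 1.43 ± 0.35 (adjusted p = 0.201). Klf2, a flow-responsive factor of endothelium, fell in HeJ (-0.53), a difference of 0.88 ± 0.21, and Klf4 rose in OuJ by 0.88, a difference of 0.86 ± 0.26. The count of 7 was 4 without the first OuJ air array, 13 without the third OuJ air array and 12 without the first HeJ air array.

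Tlr4 itself was measured at similar levels in all groups, with signals in OuJ of 286, 253 and 291 after 48 h of ozone and 208, 254 and 199.9 in air, and in HeJ 259.7, 228 and 183 after 48 h of ozone and 244, 213 and 228 in air. All group pairs compared overlapped, and the strain difference was 0.35 ± 0.23 with a 95% interval of -0.13 to 0.84 (adjusted p = 0.754). The probe set measures transcript level, so it does not check the mutation. Among 28 genes of Tlr4 and NF-kB signalling, 1 had a higher and 1 a lower change in OuJ, with a median of 0.05: Tlr2, a receptor for bacterial lipoproteins, rose in OuJ by 0.57 beside 0.04 in HeJ, and the adhesion molecule Icam1 rose in HeJ by 0.33 beside -0.10 in OuJ. Their differences were 0.53 ± 0.17 and -0.44 ± 0.15.

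Of 13 genes of the acute phase and secreted defence, 11 rose in OuJ and 12 in HeJ, with median changes of 1.10 and 1.59. For 4 members the change was lower in OuJ at an unadjusted p under 0.05 and for 0 higher, and the median difference was -0.33. It was -0.18 without the first OuJ 48 h array, -0.19 without the third OuJ air or the third HeJ air array and -0.50 without the second HeJ air array. Saa3, an acute phase protein made in the lung, had signals in OuJ of 831, 1254 and 786 after 48 h of ozone and 119, 156 and 123 in air. The HeJ arrays gave 2609, 3153 and 2434 after 48 h of ozone and 166, 152 and 92.6 in air. Air arrays of the strains overlapped, and each HeJ 48 h array lay above each OuJ 48 h array. Saa3 rose by 2.69 ± 0.30 in OuJ and 4.19 ± 0.30 in HeJ (adjusted p = 5.91e-06 and 4.83e-09), with a difference of -1.50 ± 0.43 (adjusted p = 0.289).

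Timp1, an inhibitor of matrix metalloproteinases, had signals in OuJ of 1099, 1385 and 1621 after 48 h of ozone and 248, 323 and 284 in air. HeJ signals were 2432, 1758 and 2196 after 48 h of ozone and 278, 224 and 221 in air. It showed the same order, with rises of 2.19 ± 0.20 and 3.06 ± 0.20 (adjusted p = 9.76e-07 and 1.48e-09) and a difference of -0.86 ± 0.28 (adjusted p = 0.362). Lcn2, which binds bacterial siderophores, rose by 1.10 in OuJ and 1.78 in HeJ. Cp, the copper oxidase ceruloplasmin, rose in HeJ by 0.84 beside 0.35 in OuJ, but its 7 probe sets gave differences of -1.01 to 0.09.

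Of 20 cytokines and chemokines, 1 had a higher and 2 a lower change in OuJ, with a median of -0.17. Cxcl5, a chemokine that attracts neutrophils, had low signals in OuJ of 77.5, 47.0 and 54.0 after 48 h of ozone and 0.9, 4.4 and 5.7 in air. Those in HeJ were 240.3, 303 and 156 after 48 h of ozone and 5.5, 6.5 and 5.1 in air. It rose in both strains (adjusted p = 0.024 in OuJ and 0.000142 in HeJ), with every HeJ 48 h array above every OuJ 48 h array. Cxcl5 was kept because HeJ 48 h replicates 1 and 2 and OuJ 24 h replicate 3 exceeded 218.3, and no other array did. It thus entered the fit only through ozone arrays on which it was high. All its air signals were below the 16 added before the logarithm, so the size of its changes depends on that number: the strain difference was -1.55 ± 0.74 (adjusted p = 0.6), -1.23 with 1 added and -1.20 with 64. Cxcl1, of the same family, rose in HeJ by 2.36 ± 0.43 beside 1.11 ± 0.43 in OuJ. Cx3cl1, a membrane-bound chemokine, fell in HeJ (-0.67) beside -0.02 in OuJ, a difference of 0.65 ± 0.16. Of 8 neutrophil markers, 0 had a higher and 1 a lower change, and their summed signal ran from 4234 to 5314 in OuJ 48 h, 4733 to 5159 in OuJ air, 4809 to 7025 in HeJ 48 h and 3963 to 5133 in HeJ air arrays. Lcn2 belongs to these 8 and makes up much of the sum, at log2(signal + 16) of 11.5 to 12.1 on HeJ 48 h arrays. The median change of the list was -0.09 in OuJ and -0.27 in HeJ. After ozone 1 member rose and 2 fell in OuJ, and 1 rose and 0 fell in HeJ.

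Macrophage markers gave 2 higher and 3 lower of 26, with a median of -0.06, and their summed signal overlapped between the 48 h groups. The lysosomal protease Ctsk and the lectin Lgals3 rose in HeJ by 1.45 and 0.75, beside 0.53 and 0.35 in OuJ, where Lgals3 also passed, with differences of -0.92 ± 0.29 and -0.39 ± 0.13. Marco, a macrophage scavenger receptor, had signals in OuJ of 64.6, 104 and 197 after 48 h of ozone and 26.4, 62.7 and 21.8 in air. In HeJ they were 660.5, 1257 and 534 after 48 h of ozone and 193, 234 and 124 in air. Each HeJ group lay above the OuJ group of the same exposure, by a strain gap of -2.61 ± 0.42 at 48 h (adjusted p = 0.000667) and -1.95 ± 0.42 in air (adjusted p = 0.0269), OuJ minus HeJ. The gap's growth, -0.66 ± 0.60, was within its spread, with a 95% interval of -1.90 to 0.58. In whole lung, fewer cells of a type and less RNA per cell cannot be told apart.

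Antioxidant genes under NRF2, the transcription factor that activates them, had 1 higher and 3 lower of 39 members, with a median of -0.13, while 8 rose in OuJ and 15 in HeJ after ozone. The count of 3 was 1 without the second and 5 without the third HeJ 48 h array. Aldh3a1, an aldehyde dehydrogenase, had signals in OuJ of 372, 299 and 372 after 48 h of ozone and 240.3, 266 and 290.1 in air. HeJ lungs had 543, 642 and 556 after 48 h of ozone and 262, 256 and 275 in air. Both 48 h groups lay above their air arrays, the HeJ group higher, but only its rise passed, 1.09 ± 0.13 (adjusted p = 8.45e-06) beside 0.37 ± 0.13, with a difference of -0.72 ± 0.18. Txnrd1, a thioredoxin reductase, rose in both strains, with a difference of -0.41 ± 0.16. None of 10 metallothionein and zinc transport genes reached an unadjusted p under 0.05, and the metallothionein Mt1 had a difference of 0.41 ± 0.27.

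Cholesterol synthesis and uptake genes had 0 higher and 4 lower of 19, with a median of -0.20, and 6 rose in HeJ and 0 in OuJ. The median was -0.13 without the first and -0.33 without the third HeJ 48 h array. Cyp51, an enzyme that demethylates lanosterol, had signals in OuJ of 141, 184 and 232 after 48 h of ozone and 124, 168 and 133 in air. The HeJ arrays gave 381, 368 and 367 after 48 h of ozone and 121, 135 and 153 in air. The HeJ 48 h arrays stood above all others, and Cyp51 rose in HeJ by 1.35 ± 0.20 (adjusted p = 0.000126), with a difference of -1.02 ± 0.29. Sqle and Msmo1, enzymes of the same pathway, rose in HeJ by 0.73 and 0.92, beside -0.18 and 0.02 in OuJ. Proteasome subunits had 0 higher and 6 lower of 32, with a median of -0.19, and 8 rose in HeJ and 0 in OuJ, with Psma3 at -0.41 ± 0.13. That count of 6 was 3 without the second HeJ air or the second HeJ 48 h array.

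Many cell division genes rose in both strains. Of 20 mitosis and spindle genes, 14 rose in OuJ and 10 in HeJ, with medians of 0.75 and 0.64, and 1 had a higher and 0 a lower change in OuJ. Mki67, a marker of dividing cells, had signals in OuJ of 489, 419 and 429.5 after 48 h of ozone and 166, 135 and 116 in air. HeJ signals were 352, 469 and 471 after 48 h of ozone and 177, 106 and 136 in air. It rose by 1.58 ± 0.27 and 1.53 ± 0.27 (adjusted p = 0.000756 and 0.000697), the 48 h groups overlapped, and the difference was 0.05 ± 0.38, with a 95% interval of -0.75 to 0.84. Ube2c, of the anaphase-promoting machinery, had a difference of 0.59 ± 0.28. Of 18 replication genes 0 reached an unadjusted p under 0.05 in either direction.

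Of 14 T and NK cell markers, 3 fell in OuJ and 11 in HeJ after ozone and 0 rose in either. For the strain difference 1, the T cell kinase Zap70 (0.69, with changes of 0.41 in OuJ and -0.28 in HeJ), was higher and 0 lower, with a median of 0.34 that was 0.22 without the third HeJ 48 h array. Their summed signal ran from 4328 to 4658 in OuJ 48 h, 5982 to 7001 in OuJ air, 2884 to 3568 in HeJ 48 h and 5794 to 6195 in HeJ air arrays. Of 13 B cell markers 6 fell in OuJ and 8 in HeJ, with 0 higher and 0 lower for the strain difference and Cd79a, a chain of the B cell receptor complex, at 0.41 ± 0.33. Summed signals of the B cell list ran from 4170 to 4291 in OuJ 48 h, 6012 to 7876 in OuJ air, 5969 to 10460 in HeJ 48 h and 9774 to 14750 in HeJ air arrays, so that they overlapped in HeJ. MHC class II genes gave 1 higher and 0 lower of 9, and interferon genes 1 higher and 3 lower of 34, with Rsad2, an antiviral enzyme, at 0.98 ± 0.41. That count of 3 was 0 without the second OuJ air array.

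Markers of cardiac muscle, which in mouse lung sheathes the pulmonary veins, had 5 higher and 0 lower of 22, with a median of 0.53. The contractile accessory gene Tcap and the respiratory subunit Cox7a1 fell in HeJ (-1.04 and -1.04), with differences of 1.11 ± 0.40 and 1.16 ± 0.36. Summed signals of the list ran from 17980 to 25020 in OuJ 48 h, 16100 to 24810 in OuJ air, 12810 to 15540 in HeJ 48 h and 17720 to 20720 in HeJ air arrays, so HeJ 48 h lay below the other groups. Ckm and Adssl1, which muscle also expresses, are among the genes above, with strain differences of opposite sign (1.21 and -1.34). The part of muscle content in their values was not tested. The count of 5 was 3 without the second OuJ 48 h array.

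Red cell genes showed the same order. Of 5 measured, 3 had a higher and 0 a lower change in OuJ, with summed signals of 7660 to 10360 in OuJ 48 h, 8258 to 11140 in OuJ air, 5554 to 6179 in HeJ 48 h and 8352 to 11250 in HeJ air arrays. Alas2, the haem synthesis enzyme of red cell precursors, had signals in OuJ of 4473, 5303 and 5992 after 48 h of ozone and 5071, 6218 and 3978 in air. Those in HeJ were 2669, 2178 and 2499 after 48 h of ozone and 6241, 4140.5 and 4693 in air. It fell in HeJ (-1.02 ± 0.22, adjusted p = 0.00352), with a difference of 1.08 ± 0.31. The 2 probe sets of the globin gene Hbb-b2 gave -0.78 and 0.76.

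Of 14 alveolar type 1 markers 0 reached an unadjusted p under 0.05 for the strain difference, while type 2 markers gave 1 higher and 2 lower of 19, club cell markers 1 and 1 of 16, and ciliated cell markers 1 and 1 of 8. Sprr1a, a cornified envelope protein of injured epithelium, had signals in OuJ of 373, 848 and 621 after 48 h of ozone and 171, 126 and 153 in air. In HeJ they were 1512, 1233 and 1412 after 48 h of ozone and 149, 147 and 179 in air. It rose in both strains, by 1.86 ± 0.27 and 3.01 ± 0.27 (adjusted p = 0.000147 and 2.08e-07), with every HeJ 48 h array above every OuJ 48 h array and a difference of -1.15 ± 0.38. Krt8, a keratin of simple epithelium, rose by 1.15 and 1.35, a difference of -0.20 ± 0.16. Of 9 mucous cell and repair genes, 0 had a higher and 1, Sprr1a, a lower change in OuJ.

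Endothelial markers gave 3 higher and 1 lower of 25, with Emcn, a surface sialomucin, falling in HeJ (-0.72), a difference of 0.48 ± 0.18. That count of 3 was 1 without the second OuJ 48 h or the second HeJ air array, and 5 without the first OuJ air, the first OuJ 48 h or the third HeJ 48 h array. Smooth muscle and pericyte markers gave 2 and 2 of 16. Acta2, smooth muscle actin, rose in HeJ by 0.98, a difference of -0.58 ± 0.22, while the 2 higher members, Smtn and Cspg4, had differences of 0.38 and 0.55. Splicing genes gave 1 and 5 of 30, with the splicing factor Srsf5 falling in OuJ (-0.94), a difference of -0.70 ± 0.18, and the count of 5 was 3 without the first OuJ 48 h array. Mitochondrial respiratory chain genes gave 0 and 4 of 59, ribosomal proteins 1 and 1 of 39, p53 targets 1 and 0 of 17, and lipid droplet genes 0 and 1 of 12. The respiratory chain count of 4 was 1 without the first HeJ air or the third HeJ 48 h array and 2 without the first OuJ air, the first OuJ 48 h, the third OuJ 48 h or the second HeJ air array. Over the 35 lists, leaving out single arrays moved 30 of the 36 counts of 1 to 3 and 6 of the 11 counts of 4 or more by over 1.5 times. It moved 28 of the 35 medians as far or turned their sign, all of them medians of at most 0.34 in size. The other 7 medians, those of the clock, red cell, cardiac muscle, immediate early, heat shock, glucocorticoid-responsive and proteasome lists, moved by less.

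**Figure D5:**
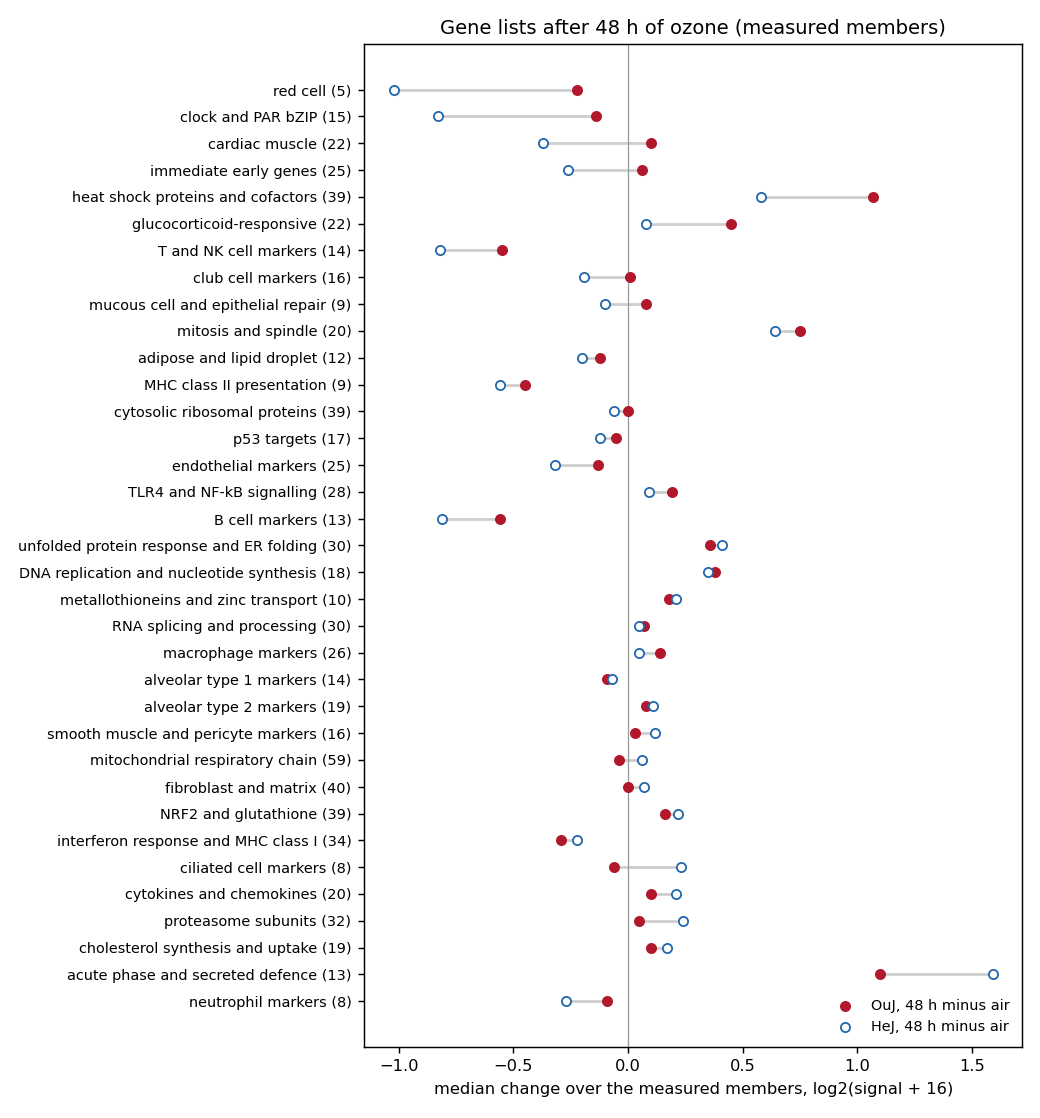
Median change after 48 h of ozone relative to air, log2(signal + 16), over the measured members of 35 gene lists in OuJ (filled red) and HeJ (open blue), ordered from top to bottom by the median strain difference of the members. Clock genes have medians of -0.14 and -0.83, heat shock genes 1.07 and 0.58, and acute phase genes 1.10 and 1.59.

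Compared directly, the strains differed in 637 genes at 48 h and in 62 in air. The air arrays of both strains share 1 code series, while the 48 h arrays of the strains belong to different ones. Strain and code series cannot be told apart at 48 h, so the 2 counts are not a like comparison. The Gapdh ratio differed between strains at 48 h (0.895 in OuJ, 0.593 in HeJ) and in air (0.843 and 0.558), and its part was not tested. OuJ against HeJ gave 285 higher (3.56%) and 352 lower (4.4%) genes at 48 h, and 31 higher and 31 lower (0.387% each) in air. Median centring of the arrays gave 183 higher and 663 lower at 48 h. Both comparisons called 39 genes, all with the same sign. At 48 h Per2 differed by 2.07 ± 0.29 (adjusted p = 0.00013), Per3 by 1.38 ± 0.20 (adjusted p = 0.000214) and Eln by -1.68 ± 0.23 (adjusted p = 0.000104), and in air by 0.17, 0.25 and -0.25, none of which passed. By adjusted p under 0.05, heat shock genes gave 11 higher and 0 lower at 48 h and clock genes 8 and 0. Cholesterol genes gave 0 and 6, and none of these lists had a call in air. The 48 h count was 255 without the third HeJ 48 h array, 275 without the second, and 325, 348 and 401 without the third, first and second OuJ 48 h array; the air count was 19 without the second OuJ air, 20 without the second HeJ air, 29 without the first OuJ air and 41 without the third OuJ air array.

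The 24 and 48 h arrays of a strain belong to 1 code series, so the change between these times can be compared between strains within series. Other features of the arrays still differ between these times. HeJ 24 h replicates 1 and 3 have sample codes with a suffix, and no HeJ 48 h array has. The Gapdh ratio averaged 0.753 in HeJ 24 h (0.605 to 0.944) and 0.593 in HeJ 48 h arrays. In OuJ it averaged 0.851 at 24 h and 0.895 at 48 h. The part of the ratio was not tested, and without the suffixed arrays only 1 HeJ 24 h array remains. The strain difference of the change between 24 and 48 h shares the 48 h arrays with the comparison above. For this difference 0 of 8008 genes passed (0%), and 885 had an unadjusted p under 0.05, 441 higher (5.51%) and 444 lower (5.54%) in OuJ. Without the second HeJ 24 h array 16 genes passed. The strain differences at 24 and 48 h against air share the air arrays, and their values are given side by side for the 5 genes per direction with the smallest p at 48 h. Per2 had 1.68 at 24 h, 1.90 at 48 h and 0.23 for the step from 24 to 48 h. In the same order, Dll1 had 0.57, 0.89 and 0.33, Tef 0.55, 0.76 and 0.21, Hlf 1.00, 0.93 and -0.07, and Rasip1 0.31, 0.71 and 0.41. Among the lower differences, Coq4 had -0.76, -2.06 and -1.29, Adssl1 -0.83, -1.34 and -0.51, Acot9 -0.58, -0.67 and -0.09, Rab40c -0.58, -0.80 and -0.22, and Eln -1.69, -1.42 and 0.26. For Coq4 and Rasip1 the step was larger in size than the value at 24 h, and for the other 8 it was smaller.

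In 4 further genes, chosen after their values were seen, the step was also larger in size than the difference at 24 h. Tsc22d3 had 0.07 at 24 h, 1.36 at 48 h and 1.29 for the step, Zbtb16 -0.05, 1.79 and 1.84, Saa3 0.21, -1.50 and -1.72, and Alas2 0.01, 1.08 and 1.06. List members with an unadjusted p under 0.05 for the step were counted, beside 5.51% higher and 5.54% lower of all genes. Heat shock genes gave 0 higher and 3 lower members, clock genes 4 and 0, glucocorticoid-responsive genes 6 and 0, and acute phase genes 0 and 6. Cardiac muscle genes gave 7 and 0, mitosis genes 9 and 0, cholesterol genes 0 and 7, and unfolded protein response genes 1 and 9. The smallest p of the step belonged to Dcpp3 (1.31 ± 0.24), the platelet receptor Clec1b (1.44 ± 0.32) and the migration factor Elmo1 (0.92 ± 0.21) among higher genes. Among lower genes they were the guidance cue Ntn1 (-0.72 ± 0.14), the glutamate transporter Slc1a3 (-1.77 ± 0.36) and the oxysterol hydroxylase Cyp7b1 (-1.58 ± 0.32). Probe sets of Cyp7b1 differ in sign for the 48 h response.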

How the data were processed

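RNA of individual left lung lobes was hybridized to Affymetrix arrays. The deposited values are signal intensity values, made by the authors with GCOS 1.4 per the submitters' processing notes; the mean after trimming 2% from each tail was 500.14 to 500.17 on every array, so arrays had been scaled. Depth does not apply to arrays, and their number limits the precision. Groups come from the sample titles, which number biological replicates. Of 22690 probe sets, 64 are controls, and 20380 of the others have 1 gene symbol, 691 several and 1555 none. Kept were probe sets whose signal exceeded 218.3, the table's median, on at least 3 of 24 arrays (12866, of which 11843 with 1 symbol), and the one with the highest mean represents each of 8008 genes, 2645 of which have several.

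From log2(intensity + 16), limma 3.58.1 in R 4.3.3 (with the data.table package, version 1.17.8) fitted 8 group means to 24 arrays, with moderated variances and an intensity trend; p-values are two-sided and adjusted over all genes within a comparison. The scripts were tested on simulated data. The 35 gene lists (1082 genes, 742 tested) and the members were chosen with earlier results of these data known. Named are the 5 genes per direction with the smallest p where fewer than 5 passed, up to 4 members of each list that passed or up to 3 with the smallest p, 3 per direction for the change between 24 and 48 h, and always Tlr4, Marco, Hspa1a, Hspa1b, Hsph1 and Mki67; further clock and heat shock members and the 11 genes of the 12-array fit were added after their values were seen. Settings varied one at a time were the scaling (quantile or median), the pseudocount (1 or 64), the filter (none, or on the mean), the summary of probe sets (their mean), the variance trend, array weights, the arrays in the fit (only the groups compared, no suffixed codes, which 4 arrays have, or each array left out), and a block for the replicate number. Applying these to the comparisons within a strain or time, and combining them with the 12-array fit, was chosen after seeing the data. Promoters come from a RefSeq table of GRCm38.p6.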

Additional observations from a re-analysis of the deposited data

How the results depend on the processing

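The count of 0 genes for the strain difference of the 48 h response became 10 with array weights (7 higher, 3 lower), 11 on the groups compared alone, and 0 to 2 when single arrays were left out; the other alternatives gave 0. With the 12-array fit, leaving out single arrays gave 1 to 14 (8 without the second OuJ 48 h and 5 without the second HeJ 48 h array), the replicate block 18, quantile normalization 11 and median centring 6. For the change between 24 and 48 h, 0 became 2 with a pseudocount of 64, 3 without the trend, 6 on the groups compared alone, 1 without the suffixed arrays and 0 to 16 when single arrays were left out. The causes were not tested. OuJ calls against air (633) became 1165 with array weights and 286 to 540 when single arrays were left out, and HeJ calls (970) 609 to 694. Strain calls at 48 h (637) became 1092 with array weights and 255 to 630 when single arrays were left out. Strain calls in air (62) became 204 with array weights, 99 with the mean of probe sets, 97 with the replicate block, 32 without the suffixed arrays and 19 to 59 when single arrays were left out.

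Over 128 genes the alternatives gave 3055 values, of which 3024 kept their sign and their side of the threshold, 25 passed and 6 turned sign: Sftpc was -0.11 with quantile normalization, Hbb-b2 -0.01 with the mean of probe sets, and Mki67 -0.12 to 0.21 when single arrays were left out. No label says that a replicate number marks a shared litter, batch or day, so the numbers were not taken as pairs: deviations of the 18 same-numbered pairs correlated at -0.0978 to 0.201, 3 above 0.1, and 9 of 12 arrays correlated best with their own number, a hint from the data and not the design. With the replicate number as a block 0 genes passed for either strain difference on all 24 arrays. For low signals such as those of Cxcl5, Coq4 and Arntl the table gives no detection call, so whether they exceed background was not assessed.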
